A study of Mus musculus with 2 samples.

Results

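The genes examined here encode proteins used as markers of the mesenchymal state or of the extracellular matrix: Fn1, Cdh2, Vim, Sparc, Tnc, Col1a1, Col1a2, Postn, Thbs1 and Lox. The list was drawn up by function, with earlier results of these data known, and each gene contributed every Etv4 or Etv5 region inside the gene or within 50 kb of it. This gave 31 of the 13636 regions of the Etv4 list and 19 of the 8297 regions of the Etv5 list, around 10 of 21911 protein-coding genes. Both libraries were made by ChIP-seq, in which DNA crosslinked to a protein is recovered with an antibody and sequenced. The cells were EpRas, a mouse mammary gland epithelial line derived from EpH4 by transformation with oncogenic H-Ras, grown in 4% serum and treated with 1 ng/ml of TGF-β3 for 1.5 h. One library was precipitated with a rabbit polyclonal antibody against Etv4 and the other with a mouse monoclonal antibody against Etv5, so that cell line, Ras, serum and TGF-β3 were common to both. There was 1 library per antibody and no replicate, and neither untreated cells nor an input library was analysed here. No difference could therefore be set against a spread between replicates, and no test was made. Intervals given below are exact (Clopper-Pearson) 95% binomial intervals that cover counting error only and treat regions as independent. The depth behind the regions is unknown because the files hold positions and no read counts.

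Epithelial-mesenchymal transition (EMT) is the process by which epithelial cells lose their junctions and acquire a motile, matrix-producing character, and TGF-β is one of its best known inducers. Fibronectin, type I collagen, tenascin-C and related proteins are secreted in this process, while the cells exchange keratins for vimentin and E-cadherin for N-cadherin. Etv4 and Etv5 are ETS family transcription factors of the PEA3 group, which bind DNA around a GGAA core and act downstream of Ras and ERK signalling. ETS factors often share regulatory elements with AP-1, the Fos and Jun dimer that recognises TGACTCA or TGAGTCA. Transcription factors are found both at gene starts and at distal enhancers, which can lie far from the gene they act on, so a region near a gene need not act on it.

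The sequences that carry the sites described below are given first, all from mm10, 5′ to 3′, on the strand from which the gene is transcribed. The first set holds every match to the ETS pattern inside the Etv4 and Etv5 regions of these genes, searched as CCGGAAGT or CAGGAAGT on both strands. Capitals mark the ETS and AP-1 letters.
Fn1, 38.5 kb upstream, Etv4 only, chr1:71691680-71691767, minus strand: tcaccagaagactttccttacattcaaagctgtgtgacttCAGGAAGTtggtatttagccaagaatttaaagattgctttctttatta
Tnc, 31.4 kb upstream, both lists, chr4:64078349-64078436, minus strand: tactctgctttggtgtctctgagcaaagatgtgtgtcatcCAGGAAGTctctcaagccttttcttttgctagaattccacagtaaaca
Col1a1, 19.5 kb upstream, Etv4 only, chr11:94916646-94916800, plus strand: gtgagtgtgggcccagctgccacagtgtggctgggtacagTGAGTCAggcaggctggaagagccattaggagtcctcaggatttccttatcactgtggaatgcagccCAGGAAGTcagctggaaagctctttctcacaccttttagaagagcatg

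The second set holds the AP-1 sites on bases listed for both factors, with those of Lox left out.
Vim, 15.2 kb upstream, chr2:13558654-13558740, plus strand: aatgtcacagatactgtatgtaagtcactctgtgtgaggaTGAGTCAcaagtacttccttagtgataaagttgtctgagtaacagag
Vim, 1.75 kb upstream, chr2:13572136-13572222, plus strand: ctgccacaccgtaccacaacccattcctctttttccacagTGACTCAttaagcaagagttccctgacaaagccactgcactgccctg
Col1a1, 8.05 kb upstream, chr11:94928136-94928222, plus strand: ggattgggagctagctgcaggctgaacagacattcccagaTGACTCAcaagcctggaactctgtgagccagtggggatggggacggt
Thbs1, 1.59 kb upstream, chr2:118110243-118110329, plus strand: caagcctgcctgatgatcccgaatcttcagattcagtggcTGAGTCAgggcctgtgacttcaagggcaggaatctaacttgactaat

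The third set shows the places where a pair of AP-1 sites stood within 20 bases of each other, both in regions of the Etv4 list without an Etv5 region.
Vim, 0.309 kb upstream, chr2:13573568-13573668, plus strand: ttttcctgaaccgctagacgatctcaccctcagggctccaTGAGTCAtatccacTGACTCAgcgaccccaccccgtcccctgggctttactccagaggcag
Tnc, 40.9 kb upstream, chr4:64087829-64087927, minus strand: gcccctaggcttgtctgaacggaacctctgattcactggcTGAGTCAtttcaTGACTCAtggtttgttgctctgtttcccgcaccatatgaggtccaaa

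The last set comes from the Tnc pair that stood near the top of both lists, which held no full ETS or AP-1 letters. Capitals mark the shorter core CAGGAA, read on the printed strand in the first and on the other strand, as TTCCTG, in the second.
Tnc, 29.3 kb upstream, chr4:64076259-64076344, minus strand: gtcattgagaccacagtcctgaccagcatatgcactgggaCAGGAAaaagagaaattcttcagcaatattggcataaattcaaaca
Tnc, 29.5 kb upstream, chr4:64076458-64076543, minus strand: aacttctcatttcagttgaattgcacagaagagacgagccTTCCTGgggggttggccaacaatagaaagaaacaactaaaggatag

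Regions were found around every one of the 10 genes, but within 50 kb the lists did not cover the same genes. An Etv4 region lay in or within 50 kb of 9 genes, all but Col1a2, compared with 53.4% of all protein-coding genes. An Etv5 region did so for 9 genes, all but Fn1, compared with 42.6% of all protein-coding genes. Regions of both lists were near 8 genes (36.4% of all protein-coding genes). Fn1 was the only member with Etv4 regions alone (16.9% of all genes) and Col1a2 the only one with an Etv5 region alone (6.23%). Both calls depended on the window, since within 100 kb all 10 genes had a region in each list. Of all protein-coding genes, 65.5% had an Etv4 and 56.3% an Etv5 region within 100 kb. No member was free of regions, whereas 40.4% of all genes were. An overlapping pair, in which an Etv4 and an Etv5 region had at least 1 bp in common, was near Vim, Sparc, Tnc, Col1a1, Thbs1 and Lox, that is, 6 of the 10 genes (29.5% of all genes). These comparisons are descriptions, since the members were not drawn at random from all genes.

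**Figure D1:**
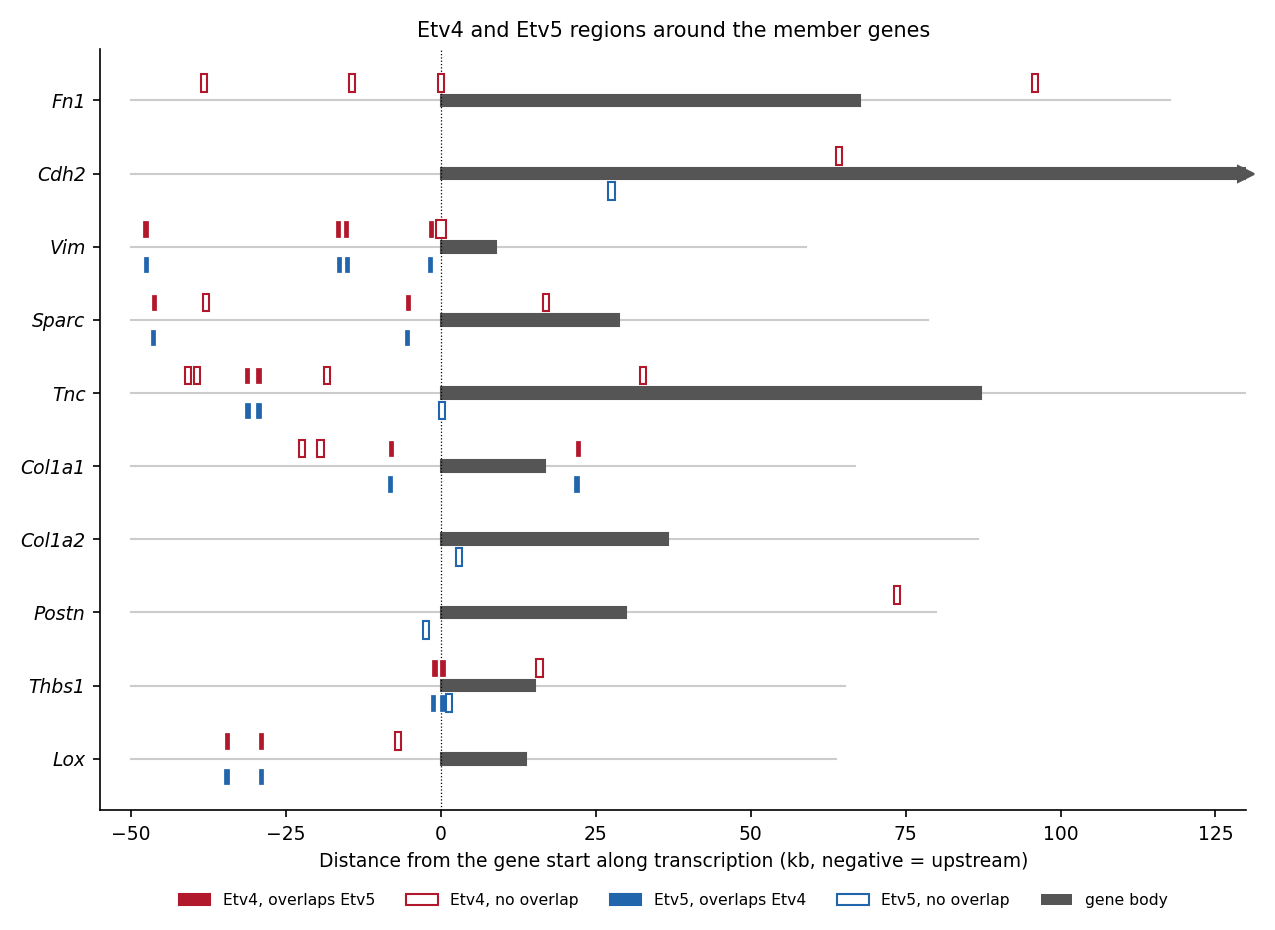
Map of the Etv4 (red, above) and Etv5 (blue, below) regions in or within 50 kb of the 10 genes, by distance from the gene start in kb along the direction of transcription. Filled boxes overlap the other list, grey bars are gene bodies, thin lines the searched window, boxes shorter than 1 kb are drawn about 1 kb wide, and Cdh2 and the window of Tnc run on past the right edge, where they held no region. Most boxes, 22 of 31 for Etv4 and 13 of 19 for Etv5, lie to the left of the start.

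The number of regions per gene ranged from 0 to 6 in the Etv4 list (median 3.5) and from 0 to 4 in the Etv5 list (median 2). The medians over all protein-coding genes were 1 and 0. At least 3 Etv4 regions were found for 7 genes (20.6% of all genes) and at least 2 Etv5 regions for 6 genes (19.6%). Tnc had the most Etv4 regions (6) and Vim the most Etv5 regions (4), and 6.08% and 4.81% of all genes had at least as many. Since long genes have wide windows, regions were also counted per 100 kb of window. The density over the members was 2.03 Etv4 and 1.25 Etv5 regions per 100 kb, while over all protein-coding genes it was 0.991 and 0.564. Vim, a short gene, had the highest densities, 4.59 and 3.67 per 100 kb. Cdh2, the longest of the genes at 220.4 kb, had the lowest density above 0, with 0.312 per 100 kb in each list. Postn (0.770 in each list) and Col1a2 (0 and 0.731) were below the density over all genes in the Etv4 list and above it in the Etv5 list.

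**Figure D2:**
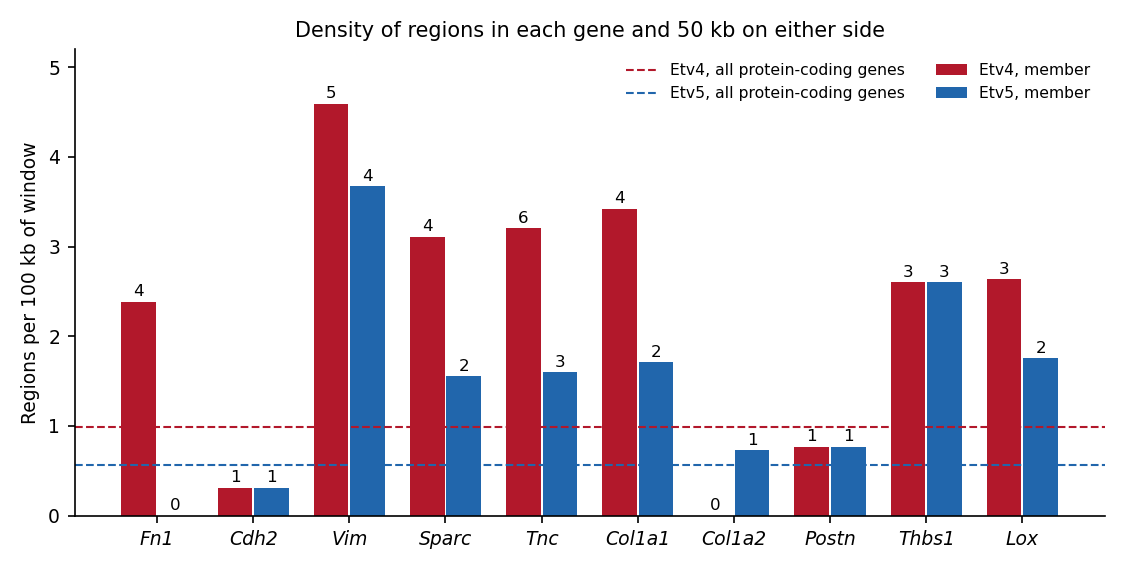
Regions per 100 kb of window (gene and 50 kb on either side) for each gene, Etv4 in red and Etv5 in blue, with the number of regions above each bar. Dashed lines give the density over all protein-coding genes, 0.991 for Etv4 and 0.564 for Etv5; 7 genes exceed the Etv4 line, and Cdh2, Col1a2 and Postn do not.

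Most of the regions lay on the upstream side. By midpoint, 22 of 31 Etv4 regions (71.0%, interval 52.0 to 85.8%) were upstream of the gene, 5 were inside and 4 downstream. Of the Etv5 regions, 13 of 19 (68.4%, interval 43.4 to 87.4%) were upstream, 5 inside and 1 downstream. Counted in the same way for every protein-coding gene, with a region counted once for each gene it was near, 38.5% of Etv4 and 39.9% of Etv5 regions were upstream. Both intervals lay above the share over all genes. Some of the upstream regions of Vim and Sparc were nearer to the start of another gene, and the shares were not counted again without them. An Etv4 midpoint was inside 5 of the 10 genes (19.2% of all genes) and an Etv5 midpoint inside 4 (12.6%). Regions that belong to one gene or to one overlapping pair are not independent, and the upstream regions included 12 of the 14 pairs.

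The cell surface and cytoskeletal markers differed in their regions. Cdh2 encodes N-cadherin, the adhesion molecule that replaces E-cadherin in mesenchymal cells, and lies on the minus strand of chromosome 18 from 16588877 to 16809246. Its Etv4 region (16744752 to 16745171) lay in an intron 64.3 kb from the gene start and contained TGAGTCA. Its Etv5 region (16781494 to 16781939) lay in an intron 27.5 kb from the start and contained neither an ETS nor an AP-1 pattern. Both stood low in their lists, at percentiles 74.4 and 86.7 of the region number. The region number is a count from 1 that comes with each region; its criterion is not stated, and it is used here only as an order, with low percentiles at the head of the list.

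Vim encodes vimentin, the intermediate filament protein of mesenchymal cells (chromosome 2, 13573927 to 13582826, transcribed from the plus strand). The start itself was spanned by an Etv4 region of 1682 bp (13573060 to 13574741, percentile 22.2), the longest Etv4 region at these genes, but by no Etv5 region. The AP-1 pair shown above, with 7 bases between its sites, lay within it, as did the start of the RefSeq transcript (GRCm38.p6), 384 bp downstream of the start of the gene record. Next to it, an overlapping pair stood 1.56 kb (Etv4, 13572102 to 13572632) and 1.69 kb (Etv5, 13572081 to 13572386) upstream. Further pairs were found 16.6 and 16.5 kb upstream (13557075 to 13557609 and 13557211 to 13557648), 15.3 and 15.2 kb upstream (13558429 to 13558788 and 13558426 to 13559023), and 47.7 and 47.5 kb upstream (13526092 to 13526393 and 13526228 to 13526546). All 4 Etv5 regions of Vim therefore overlapped an Etv4 region, and only the Etv4 region at the start did not. The 3 distal pairs were closer to the start of Trdmt1 than to that of Vim, and the most distal one lay in a Trdmt1 intron. That pair was also close to the foot of both lists (percentiles 98.8 and 94.9).

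Among the fibrillar components, Fn1 and the collagen genes showed contrasting patterns. Fn1 encodes fibronectin, the adhesive glycoprotein on which other matrix proteins assemble (chromosome 1, minus strand, 71585520 to 71653200). Its 4 Etv4 regions stood at percentiles 10.1, 26.8, 46.1 and 56.8. The first of these (972 bp, 71652645 to 71653616) covered the gene start, with its midpoint in untranslated exon sequence, and contained no ETS, core, AP-1, RUNX, TEAD or Smad pattern. The region 14.4 kb upstream (71667231 to 71667874) contained TGAGTCA, and the one 38.3 kb upstream (71691190 to 71691778) contained the ETS site shown above. The region at percentile 56.8 (71557103 to 71557503) lay past the end of Fn1, 153 bp from the start of Atic. The nearest Etv5 region was 97.8 kb from the gene, well outside the window. The paper, in contrast, describes both Etv4 and Etv5 as bound at the Fn1 locus, without giving the span of that locus in its text.

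Col1a1 and Col1a2 encode the chains of type I collagen, the main fibrillar collagen of connective tissue. Around Col1a1 (chromosome 11, 94936224 to 94953042, plus strand) there were 4 regions of the Etv4 list and 2 of the Etv5 list, none of them inside the gene. A pair lay 8.02 kb (Etv4, 94927805 to 94928595) and 8.16 kb (Etv5, 94927688 to 94928432) upstream, and the bases common to both held TGACTCA. The Etv4 region 19.4 kb upstream (94916377 to 94917185) held both an AP-1 and an ETS site, 60 bases apart, and had no Etv5 counterpart. The other pair lay beyond the 3′ end (94957812 to 94958771 for Etv4 and 94957564 to 94958634 for Etv5), nearest to the start of Hils1, 9.30 kb away for the Etv4 region. Its Etv5 region, at percentile 2.66, had the lowest number of the 19 Etv5 regions. Col1a2 (chromosome 6, plus strand, 4504814 to 4541544) had a single region, in the Etv5 list (4507449 to 4507904, percentile 76.5). It lay 2.86 kb downstream of the start of the gene record, in an exon of Gm43921, a predicted transcript within the gene, and contained no ETS or AP-1 pattern. The RefSeq start of Col1a2 lay 804 bp further into the gene record. The nearest Etv4 region was 73.5 kb from Col1a2, so that Col1a1 had regions of both lists and Col1a2 of the Etv5 list alone.

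Lox encodes lysyl oxidase, the enzyme that crosslinks collagen and elastin, and lies on the minus strand of chromosome 18 from 52516067 to 52529867. All 5 of its regions were upstream and in introns of an antisense transcript (AC161119.1). One pair stood 29.1 kb (Etv4, 52558550 to 52559358) and 29.0 kb (Etv5, 52558509 to 52559280) upstream, and the other 34.5 and 34.6 kb upstream (52563974 to 52564849 and 52564080 to 52564830). The bases common to both lists held 2 AP-1 sites in the first pair and 1 in the second. The Etv4 regions of the pairs were at percentiles 9.12 and 5.69, and the Etv5 regions at 35.8 and 14.9. Another Etv4 region, 6.88 kb upstream (52536452 to 52537049), had no Etv5 counterpart.

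The matricellular genes encode secreted proteins that modulate the contact of cells with the matrix. Tnc (tenascin-C, chromosome 4, minus strand, 63959785 to 64047015) had 6 Etv4 and 3 Etv5 regions, as many in all as Vim. An Etv5 region of 332 bp (64046714 to 64047045) spanned the gene start and was not overlapped by an Etv4 region, the reverse of Vim and Fn1. The overlapping pairs stood 29.5 kb (Etv4, 64075957 to 64077011) and 31.3 kb (Etv4, 64077879 to 64078778) upstream, in introns of the non-coding transcripts 8030451A03Rik and Gm11216. Their Etv4 regions were at percentiles 2.07 and 6.53, and their Etv5 regions (64075974 to 64076901 and 64077925 to 64078533) at 8.74 and 10.1. The pair at 31.3 kb held the only ETS site on bases common to both lists. The other 4 Etv4 regions, at percentiles 44.1 to 96.8, overlapped no Etv5 region. The one 40.9 kb upstream (64087530 to 64088209) held the AP-1 pair with 5 bases between its sites.

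Thbs1 encodes thrombospondin 1, a glycoprotein known to activate latent TGF-β (chromosome 2, plus strand, 118111876 to 118127133). It was the gene with the most regions close to its start. An Etv4 region of 1156 bp (118110208 to 118111363) and an Etv5 region of 738 bp (118110237 to 118110974) overlapped 1.09 and 1.27 kb upstream, with their midpoints in an exon and an intron of the non-coding transcript Gm13986. A second pair lay in the gene 271 and 262 bp from its start (118111914 to 118112380 and 118111942 to 118112334), with midpoints 9 bp apart, the closest of the 14 pairs. An Etv5 region (118113048 to 118113391) followed in a coding exon, 1.34 kb from the start, and an Etv4 region (118127191 to 118128357) began just past the end of the gene. All 6 regions of Thbs1 had the start of Thbs1 as their nearest protein-coding start.

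Sparc encodes osteonectin, a collagen-binding protein (chromosome 11, minus strand, 55394500 to 55423183). Its Etv4 region in an intron (55405867 to 55406446) contained 2 AP-1 sites, and lay 17.0 kb from the start of the gene record but 3992 bp from an internal transcript start. A pair stood 5.27 kb (Etv4, 55428145 to 55428763) and 5.45 kb (Etv5, 55428474 to 55428789) upstream, where the Etv5 region was at percentile 95.4. The RefSeq start of Sparc lay 3103 bp inside the gene record, so upstream regions are farther from it by this length. The remaining regions belonged to neighbouring starts: an Etv4 region (55460890 to 55461418) was 85 bp from the start of Atox1, and the other pair (55469042 to 55469968 and 55469221 to 55469988) was 180 and 80 bp from that of G3bp1. Postn encodes periostin (chromosome 3, plus strand, 54361109 to 54391037) and had 1 region in each list. The Etv5 region lay 2385 bp upstream (54358532 to 54358915), and the Etv4 region (54434464 to 54434869) was 43.4 kb beyond the end of the gene. One of the RefSeq starts of Postn lay upstream of the gene record, and the midpoint of the Etv5 region was 543 bp from it.

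At the gene starts, Etv4 midpoints were within 2 kb for Fn1, Vim and Thbs1, and Etv5 midpoints for Vim, Tnc and Thbs1. These were 3 of 10 genes in each list, while 15.4% of all protein-coding genes had an Etv4 and 8.72% an Etv5 midpoint within this distance. With RefSeq starts counted as well, which were not matched for every gene, Postn joined the genes with an Etv5 midpoint within 2 kb, which made 4. The number for Etv4 stayed at 3. With any transcript start of the annotation counted, Col1a2 joined instead, its Etv5 midpoint 1975 bp from such a start, which also made 4. No share of all genes was counted with these further starts. The Etv5 midpoint nearest to the RefSeq start of Vim was 2077 bp from it. For 24 of 31 Etv4 regions and 14 of 19 Etv5 regions, the start of the member was the nearest protein-coding start; the others were nearer to Atic, Trdmt1, Atox1, G3bp1 or Hils1. When only these were counted, 9 genes still had an Etv4 region, again all but Col1a2, and 9 an Etv5 region, again all but Fn1. The share of all protein-coding genes under this rule was not counted, so these numbers have no background. The window of 50 kb included the outermost Vim pair, 47.5 and 47.4 kb from the gene, and left out the next Etv4 regions of Tnc (51.2 kb) and Postn (52.8 kb).

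The overlap between the lists at these genes was close to that of the whole lists. Of the 31 Etv4 regions, 14 overlapped an Etv5 region (45.2%, interval 27.3 to 64.0%), compared with 37.8% in the whole list. Of the 19 Etv5 regions, 14 overlapped an Etv4 region (73.7%, interval 48.8 to 90.9%), compared with 63.2% in the whole list. Both intervals include the share of the whole list. The 14 overlapping regions of one list paired with the 14 of the other, so the shares differed only through the totals, 31 and 19. The Etv4 list was also cut to its 8297 longest regions, as many as in the Etv5 list. Each list then held 19 member regions, so equal shares at the members (47.4%) followed from the counts. In the whole lists the shares were then 50.7% for Etv4 and 52.2% for Etv5. The pairs had 166 to 928 bp in common (median 618.5 bp), and their midpoints were 9 to 193 bp apart. The Etv4 region was the longer one in 11 of the 14 pairs (78.6%, interval 49.2 to 95.3%), compared with 73.3% of all pairs of the lists.

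**Figure D3:**
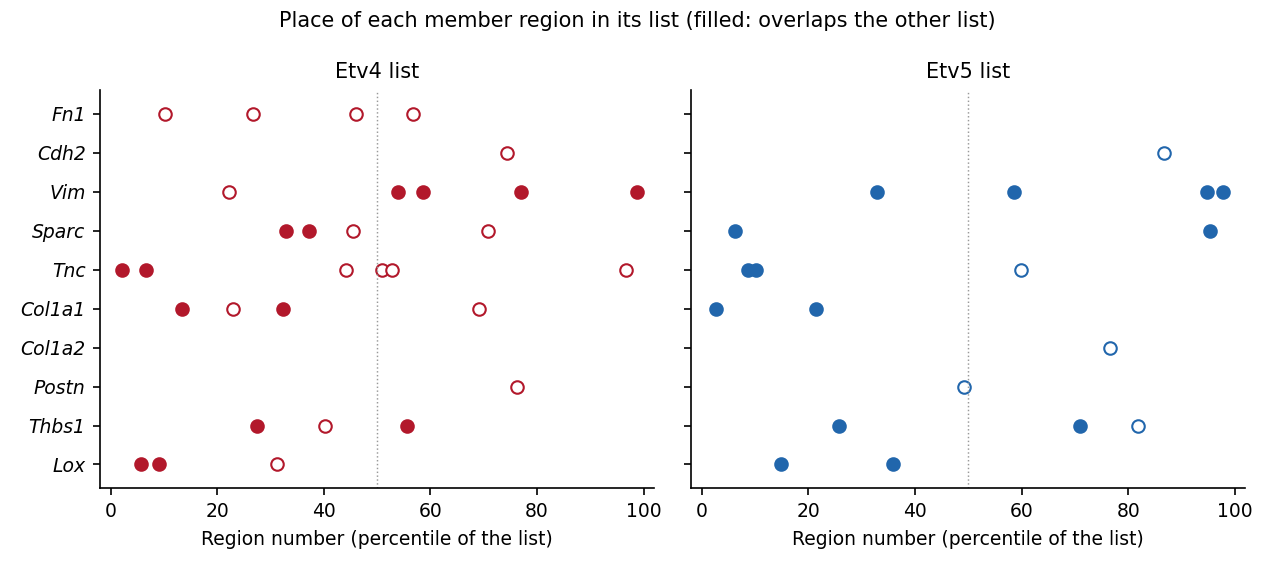
Region number of every member region as a percentile of its list, Etv4 on the left and Etv5 on the right, by gene; filled points overlap the other list. Filled points of Tnc and Lox lie at the head of the Etv4 list (percentiles 2.07 to 9.12), while those of Vim spread to percentile 98.8.

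The regions at these genes were neither early nor late in the lists as a whole. The median percentile was 44.1 for Etv4 (range 2.07 to 98.8) and 49.2 for Etv5 (range 2.66 to 97.8), against 50.0 by construction. The 4 Etv4 regions below percentile 10 were those of the Tnc and Lox pairs. In the Etv5 list, 3 regions were below it, at Col1a1, Sparc and Tnc. Median lengths were 619 and 456 bp, compared with 589 and 532 bp in the whole lists. Repeated sequence made up little of the member regions, and the highest share of 36-base stretches with another copy in the genome was 7.40%, in a Vim region.

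For most patterns, the shares at these genes were close to those in the whole lists. In 500 bp around the midpoint, 3 of the 31 Etv4 regions contained the ETS pattern (9.68%, interval 2.04 to 25.8%). In the Etv5 list 1 region of 19 did so (5.26%, interval 0.133 to 26.0%). In the whole lists it was present in 10.2 and 7.93%, in windows of the same length spaced evenly over the genome in 3.42%, and in windows at protein-coding starts in 10.2%. All matches were CAGGAAGT; CCGGAAGT was found in none, which at 31 regions allows a share of up to 11.2%. The letters written backwards (TGAAGGCC or TGAAGGAC), a control, were found in 3 of 31 Etv4 regions (9.68%) and 2 of 19 Etv5 regions (10.5%), as often as the ETS pattern or more. In the whole lists the control stood at 3.60 and 3.81%, below the ETS pattern, and in evenly spaced windows at 3.25%. The intervals of the control at these genes, 2.04 to 25.8% and 1.30 to 33.1%, include these shares. The shorter core, CCGGAA or CAGGAA, which is contained in the ETS pattern, had shares of 61.3% for Etv4 (interval 42.2 to 78.2%) and 57.9% for Etv5 (interval 33.5 to 79.7%). These were close to the shares in the whole lists, 60.9 and 57.4%, and to that at protein-coding starts, 56.7%, and both intervals included the 43.6% of evenly spaced windows.

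AP-1 sites were found in 11 of 31 Etv4 regions (35.5%, interval 19.2 to 54.6%). The Etv5 regions held them in 6 of 19 cases (31.6%, interval 12.6 to 56.6%). The shares in the whole lists were 37.4 and 35.8%, and that in evenly spaced windows was 7.30%, below both intervals. Over the whole length of the regions, the members held 18 distinct AP-1 sites and 3 distinct ETS sites. The bases common to a pair held an AP-1 site in 6 of 14 pairs (42.9%, interval 17.7 to 71.1%), at Vim, Col1a1, Thbs1 and Lox. Over all 5311 overlapping pairs of the lists on nuclear chromosomes this share was 42.0%, so the pairs at these genes did not stand apart from the others. A core CAGGAA stood near some of these sites, 12 bases away in the Lox pair at 29.1 kb, 19 bases away at Thbs1 and 40 bases away at Col1a1. No core lay this near in the Vim pairs at 15.3 and 1.56 kb or in the Lox pair at 34.5 kb. These distances were not compared with a background. RUNX patterns (TGTGGTT or TGTGGTC) were present in 6 of the 31 Etv4 member regions (19.4%) and in 3 of the 19 Etv5 ones (15.8%). The whole lists held them in 24.7 and 23.9%, and evenly spaced windows in 17.2%. TEAD patterns (GGAATG, which can share bases with an ETS core) were present in 32.3 and 36.8% of member regions, compared with 32.3 and 34.0% of the lists and 25.4% of the windows. The Smad pattern CAGACA was present in 41.9 and 52.6% of member regions, compared with 42.0 and 42.5% of the lists and 36.1% of the windows, and the Smad palindrome GTCTAGAC in none. For these 3 factors, the intervals at the members included the shares in the whole lists and in evenly spaced windows.

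**Figure D4:**
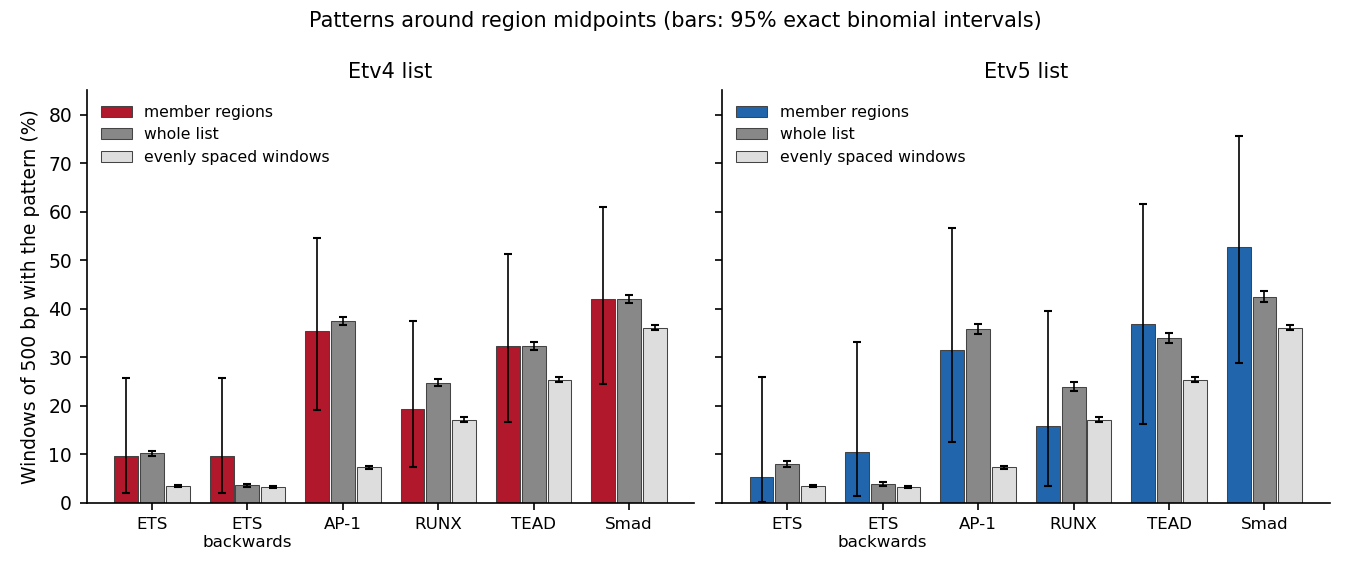
Share of 500 bp windows that contain each pattern, in per cent, for member regions (coloured), the whole list (grey) and evenly spaced genomic windows (light grey), with exact 95% binomial intervals. Of the patterns plotted, only for AP-1 does the interval of the member regions, 19.2 to 54.6% for Etv4 and 12.6 to 56.6% for Etv5, lie above the evenly spaced windows (7.30%).

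Finally, 62 other genes of the matrix and the mesenchymal state were counted in the same way. Of these, 48 (77.4%) had an Etv4 region in or within 50 kb, against 53.4% of all protein-coding genes, and 36 (58.1%) an Etv5 region, against 42.6%. An overlapping pair was near 31 of them (50.0%, against 29.5%), and 12 had no region (19.4%, against 40.4%). The density was 1.73 Etv4 and 0.910 Etv5 regions per 100 kb of window, between that of the 10 members and that of all protein-coding genes. Among the genes with the most regions were Col18a1 (collagen XVIII, 11 Etv4 and 7 Etv5 regions), S100a4 (a calcium-binding protein, 10 and 3), Cd44 (the hyaluronan receptor, 9 and 4), Fbn1 (fibrillin 1, 8 and 7), Fbln2 (fibulin 2, 8 and 3) and Ccn4 (a matricellular protein, 7 and 7). Fbln2 had midpoints of both lists within 2 kb of its start. These counts are per window: 9 of the 11 Etv4 regions of Col18a1, but 1 of the 10 of S100a4, had their midpoint inside the gene. The nearest start was not looked up for the regions of these 62 genes.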

How the data were processed

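EpRas cells were subjected to ChIP-seq with 1 library per antibody. Library fragments were amplified by 15 cycles of PCR. Per the labels, the submitters' processing notes name Bowtie and mm10. The authors called regions in each library with one-sample CisGenome (window of 300 bp, p threshold of 0.1), which uses no control library. The deposited BED files have 6 columns, and the deposited score is 1000 in every row. Starts are printed counting from 1. The shortest region measured 299 bp, so lengths may be off by 1 bp.

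Genes came from GENCODE M21 and sequence from GRCm38.p6, the assembly of mm10, in which all nuclear regions ended within their chromosomes. RefSeq starts were matched for 5 of the 10 genes. Overlap required 1 bp. The gene start is the 5′ end of the gene record. Both strands of 500 bp centred on each midpoint were scanned for patterns, with 26484 windows spaced every 100 kb as background. The members and gene lists were chosen with earlier results of these data known. The rule for naming took all members, genes whose start was the nearest to a member region, and up to 5 other genes per list with the most regions, of which 1 is not reported here. Non-coding transcripts that hold a region were named after the regions were seen. Functions were tested on simulated data. The tools were matplotlib 3.10.9, numba 0.67.0, scipy 1.17.1, pandas 2.3.3, numpy 2.4.6 and Python 3.11.15.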

Additional observations from a re-analysis of the deposited data

How the results depend on the processing

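Leaving out regions of mostly repeated sequence removed none at these genes. Of 66 values under the other settings, 44 stayed within the interval of the reported share, or within 1.5 times the reported count, and 22 moved, in most cases because fewer regions or other letters were counted. With a window of 20 kb, 18 Etv4 regions remained. Regions reaching into the gene numbered 6 for Etv4, at 6 genes, and 5 for Etv5, at 4 genes. The share of all protein-coding genes with a region reaching into them was not counted. Keeping only the regions above the median length left 17 and 9 regions, and keeping those below the median region number left 18 and 10. With equal numbers by length, 47.4% of Etv5 regions overlapped. Within 5 kb of the start, 5 genes had an Etv5 midpoint (10.7% of all protein-coding genes), and 1 had its start base covered by an Etv5 region (4.33%). The ETS share was 0% for CCGGAAGT in both lists and for 200 bp in Etv5 regions, and 61.3 and 57.9% for the core. Over all genes of the annotation, 40.4 and 31.8% had an Etv4 or Etv5 region. Windows of 20 and 100 kb were added after seeing the data for the 62 other genes and for the share of protein-coding genes, which was 39.9 and 65.5% in the Etv4 list. In the Etv5 list it was 29.2 and 56.3%. RefSeq starts as further gene starts were also added then. With 31 and 19 regions, only large differences in shares could be seen. No paired analysis was possible because there was 1 library for each factor, without replicate numbers to match, and no comparison was tested.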
